A study of Mus musculus with 121 samples.

Results

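The 10 genes described here carry the insulin signal from the cell surface to transcription, and they were chosen by name: the receptors Insr and Igf1r, the adaptors Irs1 and Irs2, the PI3K subunits Pik3r1 and Pik3ca, the kinases Akt1 and Akt2, and the transcription factors Foxo1 and Foxo3. Each was matched to 1 of the 31053 Ensembl gene identifiers that were counted, and all 10 passed the filter on low values, as did 13292 genes in all. The cells were 1 immortalized line of mouse ear fibroblasts with the reporter that the labels call Per2::LUC and the study's methods PER2::LUCsv, in which a luciferase is fused to the clock protein PER2. They went through 3 cycles of 24 h with a medium change every 12 h: from high to low glucose and insulin (HL), from low to high (LH), or from high to renewed high (HH). After 12 h without further changes, RNA was collected every 4 h at 6 collections, and hours below follow the collection number in the titles, at 4 h a step from the first. The titles also hold clock hours, which were set aside because they do not step by 4 h throughout. They read 20 at the first collection, 12 at both the second and the fifth, and 16 at the sixth. At the third and the fourth they read 16 and 20 in LH, where HL and HH have 4 and 8. All phases rest on setting these hours aside, so that 0 h is the first collection. The study asked whether such metabolic cycles set the clock and the transcripts of the cells.

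RNA was measured by 3′ digital gene expression, in which a transcript gives reads near its 3′ end, so that counts are taken to be little affected by transcript length. They still depend on where a gene's 3′ end is annotated, and 18.4% to 29.1% of the reads of a set of counts fell in no gene, so that comparisons of level between genes carry this limit. Levels are given in CPM, a gene's counts per 1000000 counts assigned to genes. The 62 libraries comprised 19 HH, 21 HL and 22 LH ones, and each collection of a treatment had 2 to 4. Their totals ran from 104912 to 11619095 counts with a median of 5825881, and the next lowest total was 2136819. The labels number the replicates but do not say that they were separate cultures, while the study's methods call replicates biological as a rule. The p-values measure only the spread between these libraries. For 40 of the 62 libraries the sample title and the library number lead to different names or the number is not listed. The titles were used first, and comparisons between treatments and over collections are also given by library number (57 libraries, 19 for each treatment, with 1 library at the fifth collection of LH and 2 to 4 elsewhere). Values by collection in HL and LH are by titles. All 19 HH libraries and the 3 HL libraries of the first collection have the same name both ways. Further, 5 libraries stood apart from the rest, with a Pearson r of 0.809 to 0.916 with the median library against a median of 0.984: replicates 1 and 2 of LH and replicate 3 of HL at the second collection, replicate 2 of HL at the fifth and replicate 3 of HH at the sixth. Calls of members that changed without them are given both ways. All 10 fibroblast markers passed the filter, with a summed level of 17886 to 40982 CPM, whereas Krt5, Myod1 and Ckm were at 0 in all libraries. Some markers of other cell types were present, among them Kdr at a mean of 172 CPM and Sox9 at 520 CPM, while Pecam1 (0.276 CPM) and Col2a1 (0.0717 CPM) were near 0.

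Insulin and the insulin-like growth factors bind receptor tyrosine kinases, which phosphorylate the IRS adaptors. The adaptors recruit phosphoinositide 3-kinase (PI3K), whose lipid product brings AKT kinases to the membrane. AKT phosphorylates FOXO transcription factors and keeps them out of the nucleus, and when insulin is scarce the FOXO factors return and can raise transcription of Irs2 and Insr. Most of this relay works by phosphorylation, which transcript levels do not show.

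The receptors had unlike levels. Igf1r, the receptor for insulin-like growth factors, was at 365 ± 88.5 CPM (SD, n = 62) and ranked 323rd of the 13292 genes tested by mean level. Insr, the insulin receptor, was at 24.6 ± 5.25 CPM (SD, n = 62). Within a library Insr was below Igf1r in all 61 libraries of over 1000000 counts, with a median ratio of 0.0630 and a range of 0.0435 to 0.168 (up to 0.119 without the libraries that stood apart). Over all transcripts of a gene in GENCODE, the exon farthest toward the 3′ end has 94 bases in Insr and 7649 in Igf1r. It need not be the last exon of every transcript. Whether reads fell in it, and what part this has in the ratio, was not tested. Insrr, the insulin receptor-related receptor, was at a mean of 0.0121 CPM. In GRCm38, Igf1r lies on the plus strand at chr7:67952827-68233668 (ENSMUSG00000005533) and Insr on the minus strand at chr8:3122061-3279617 (ENSMUSG00000005534).

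Of the adaptors that link the receptors to PI3K, Irs2 was at 88.8 ± 20.1 CPM and Irs1 at 20.2 ± 6.08 CPM (SD, n = 62). Irs1 was below Irs2 in all 61 libraries of over 1000000 counts, with a median ratio of 0.232 and a range of 0.111 to 0.787. The highest ratio came from replicate 3 of HH at the sixth collection, and without the libraries that stood apart the range was 0.116 to 0.361. Irs3 and Irs4 were at means of 0.0208 and 0.00988 CPM, each with no count in 59 of 62 libraries. Irs1 lies on the minus strand at chr1:82233101-82291416 (ENSMUSG00000055980) and Irs2 on the minus strand at chr8:10984681-11008458 (ENSMUSG00000038894). The last exon of Irs1 overlaps Gm9747, which lies on the opposite strand and had 0 counts in all libraries. Nothing read here states whether counting used strand, and without it, reads in that overlap would go to neither gene.

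The Irs1, Irs2 and Irs4 promoters are shown because they hold side by side the E-box CACGTG, the letters that the clock factors CLOCK and BMAL1 bind, and TGTTTTG, known from the Irs2 promoter as an insulin response element on which FOXO factors act. The sequences are from RefSeq (GRCm38.p6, minus strand, read 5′ to 3′ along the gene) and cover chr1:82291502-82291601, chr8:11008930-11009029 and chrX:141725319-141725418, with both motifs in capitals.
Irs1: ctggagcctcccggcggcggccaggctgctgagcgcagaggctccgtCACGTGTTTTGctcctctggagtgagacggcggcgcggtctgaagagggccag
Irs2: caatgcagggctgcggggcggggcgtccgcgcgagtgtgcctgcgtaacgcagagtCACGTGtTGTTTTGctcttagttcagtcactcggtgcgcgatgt
Irs4: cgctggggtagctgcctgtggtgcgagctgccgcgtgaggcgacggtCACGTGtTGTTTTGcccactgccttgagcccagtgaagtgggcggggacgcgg

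The E-box begins 115 bases upstream of the RefSeq start in Irs1, 44 bases upstream in Irs2 and 154 bases upstream in Irs4. TGTTTTG begins 111, 37 and 147 bases upstream, and in Irs1 it shares bases with the E-box, while a further copy lies 32 bases upstream. Over both strands of the 250 bases before the start, CACGTG was in 6.02% of 32851 promoters and TGTTTTG in 5.56%. Both motifs began within 10 bases of each other in 7 promoters (0.0213%), of Irs1, Irs2, Irs4, Klf11, Pcbp1, Pyroxd1 and 1700019P21Rik. This pair was searched for after the Irs1 and Irs2 promoters had been seen. The FOXO element TGTTTAC, in 3.17% of promoters, was found once among the members, in Akt1, 161 bases upstream of the start. Promoters of 9 of the 10 members were in the table used, all but that of Insr. Of these 9, only Irs1, Irs2 and Akt1 held any of the 3 motifs. These are matches of letters and not measured sites.

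PI3K pairs a regulatory with a catalytic subunit. Pik3r1, the regulatory subunit, was at 84.8 ± 18.1 CPM and Pik3ca, the catalytic subunit alpha, at 68.5 ± 12.9 CPM (SD, n = 62). Of the 5 pairs of related members, this was the only one whose order changed between libraries: Pik3ca was above Pik3r1 in 15 and below it in 46 of 61 libraries, with a median ratio of 0.810. The related regulatory subunit Pik3r2 was at a mean of 114 CPM and the catalytic subunit Pik3cb at 21.9 CPM. Pik3r1 lies on the minus strand at chr13:101680563-101768217 (ENSMUSG00000041417) and Pik3ca on the plus strand at chr3:32397671-32468486 (ENSMUSG00000027665).

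Among the AKT kinases, Akt1 was at 148 ± 24.2 CPM and Akt2, the form best known for glucose uptake, at 45.4 ± 8.06 CPM (SD, n = 62). Akt2 was below Akt1 in all 61 libraries of over 1000000 counts, with a median ratio of 0.304 and a range of 0.182 to 0.721. Akt1 lies on the minus strand at chr12:112653821-112674884 (ENSMUSG00000001729) and Akt2 on the plus strand at chr7:27591552-27640826 (ENSMUSG00000004056).

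At the end of the relay, Foxo3 was at 54.96 ± 7.78 CPM and Foxo1, the FOXO factor best known for hepatic gluconeogenesis, at 26.0 ± 5.55 CPM (SD, n = 62). Foxo3 was above Foxo1 in all 61 libraries of over 1000000 counts, with a median ratio of 2.08 and a range of 1.09 to 7.35. The highest ratio came from replicate 1 of LH at the second collection, and without the libraries that stood apart the range was 1.29 to 3.97. Foxo4 was at a mean of 40.2 CPM and Foxo6 at 15.0 CPM. Foxo1 lies on the plus strand at chr3:52268336-52353221 (ENSMUSG00000044167) and Foxo3 on the minus strand at chr10:42181841-42276755 (ENSMUSG00000048756).

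From highest to lowest mean, the order was Igf1r, Akt1, Irs2, Pik3r1, Pik3ca, Foxo3, Akt2, Foxo1, Insr and Irs1. Of the neighbours, Irs2 and Pik3r1 differed by less than the SD of either, as did Foxo1 and Insr, and Insr and Irs1. Over the 61 libraries the coefficient of variation (CV) ran from 14.0% in Foxo3 to 30.0% in Irs1. Counting error alone would give 5.77% for Foxo3 and 9.53% for Irs1 at these depths. For comparison, the median CV of the 5585 genes tested in the same range of levels was 20.1% with quartiles of 16.5% and 24.7%, so that Foxo3 lay below and Irs1 above these quartiles.

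**Figure D1:**
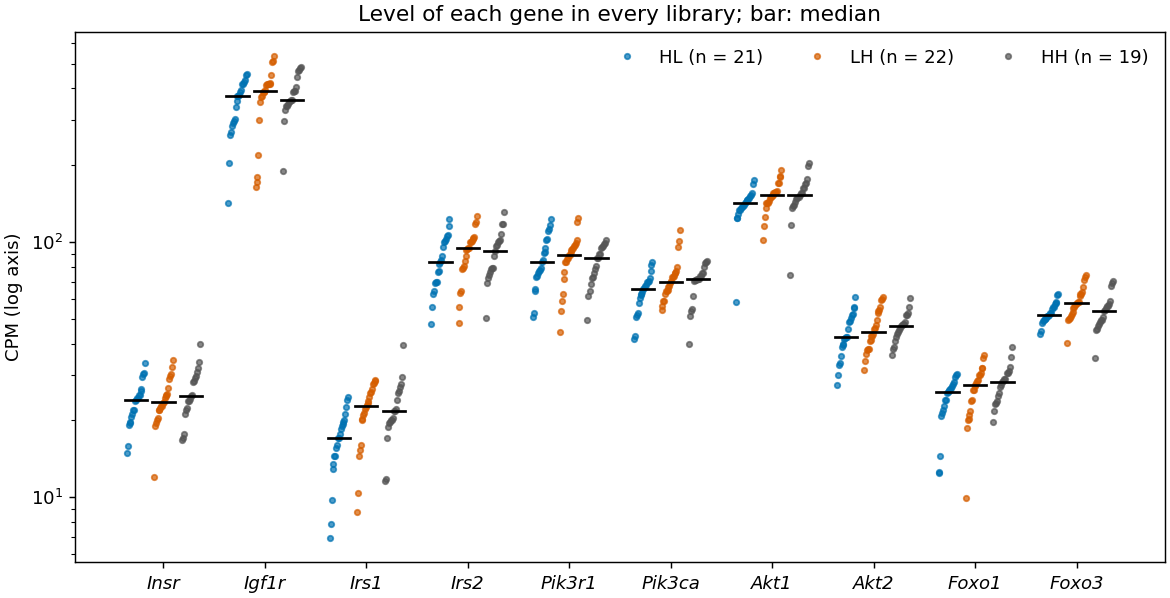
Level of each member in every library (points) on a log axis in CPM, by treatment as the titles name it (HL 21, LH 22 and HH 19 libraries). Points are spread sideways in order of value and a bar marks the median. Igf1r sits at the top in all 3 treatments with medians of 361 to 392 CPM and Irs1 at the bottom with medians of 17.1 to 22.8 CPM, and the treatments overlap in each of the 10 genes.

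Between treatments, averaged over the collections, Irs1 was the single member that passed the rule for a difference in level, P under 0.01 over the 3 treatments and under 0.05 in the comparison. The study set these thresholds for an ANOVA with a multiple comparison test on mean profiles, and here they were applied to unadjusted p of edgeR's quasi-likelihood test. By titles, Irs1 was at 6.93 CPM in the lowest, 17.1 CPM in the median and 24.8 CPM in the highest HL library (n = 21). It ran from 8.77 CPM through a median of 22.8 CPM to 28.9 CPM in LH (n = 22), and from 11.5 CPM through 21.7 CPM to 39.5 CPM in HH (n = 19). The 3 treatments overlapped, with the HL values shifted down.

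Against a mean of 16.8 ± 4.84 CPM in HL, Irs1 was at 21.8 ± 5.68 CPM in LH and 22.3 ± 6.33 CPM in HH (SD). The fitted difference was 0.31 on the log2 scale for LH against HL (SE 0.12, 95% interval 0.06 to 0.56) and 0.37 for HH against HL (SE 0.13, 95% interval 0.12 to 0.63). These comparisons share the HL libraries. The unadjusted p over the 3 treatments was 0.0093 in edgeR's quasi-likelihood test, but with Benjamini-Hochberg adjustment over all genes it was 0.553, and the adjusted p was 0.732 for LH and 0.486 for HH against HL. The rule called 1.16% of all genes for LH against HL and 1.2% for HH against HL, and 1 of the 10 members in each.

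The call for Irs1 was lost by library number. There 35 libraries took other names and the 5 whose number is not listed were left out, among them replicate 3 of HL at the second collection (7.85 CPM). What part each of these had was not tested. By titles the call was also lost without the library of 104912 counts, with a replicate block and with the second sequencing run alone. It was likewise lost without replicate numbers 2 or 3 of HL, 3 or 4 of LH and 1, 2 or 3 of HH. By library number Irs1 ran from 10.3 to 28.9 CPM with a median of 22.1 CPM in HL (n = 19), and from 6.93 to 27.7 CPM with a median of 19.4 CPM in LH (n = 19). Here the means were 20.7 ± 5.18 CPM in HL and 18.4 ± 5.81 CPM in LH (SD), so that the order of HL and LH was the opposite. The difference was -0.14 on the log2 scale for LH against HL (95% interval -0.40 to 0.13, edgeR adjusted p = 0.853) and 0.11 for HH against HL (95% interval -0.15 to 0.38, edgeR adjusted p = 0.999). No member passed the rule by library number, where it called 1.34% of all genes for LH and 0.568% for HH against HL. Irs1 did not pass by titles either once the 5 libraries that stood apart were left out, with differences of 0.27 for LH (95% interval 0.05 to 0.48) and 0.22 for HH (95% interval 0.00069 to 0.44), where the rule called 1.57% and 1.41% of all genes. Of those 5 libraries, replicate 2 of HL at the fifth collection (6.93 CPM) and replicate 3 of HL at the second (7.85 CPM) held the lowest Irs1 levels, and replicate 3 of HH at the sixth held the highest (39.5 CPM).

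**Figure D2:**
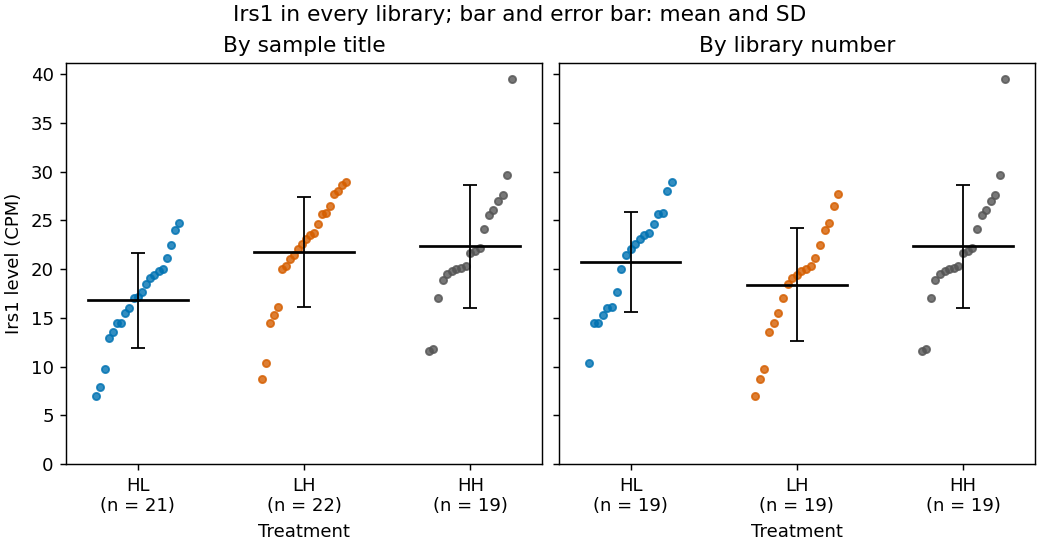
Irs1 level in CPM in every library (points) with the mean and SD of HL, LH and HH, named by sample title on one side and by library number on the other. By titles the HL mean (16.8 CPM) is the lowest of the 3, and by library number the LH mean (18.4 CPM) is, while the HH libraries are the same both ways.

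The other 9 members did not pass the rule in either naming. The receptors differed little in mean level: Igf1r was at 345 ± 82.8 CPM in HL, 372 ± 105 CPM in LH and 379 ± 72.3 CPM in HH, and Insr at 23.7 ± 4.76, 24.2 ± 4.98 and 25.9 ± 6.03 CPM (SD, n = 21, 22 and 19). Irs2 was at 84.8 ± 20.3, 90.6 ± 20.3 and 91.1 ± 19.9 CPM in the same order. For Irs2 the 95% interval of LH against HL on the log2 scale was -0.15 to 0.23. By library number HL and LH were at 376 ± 84.9 and 370 ± 90.0 CPM for Igf1r, 24.8 ± 3.88 and 23.2 ± 6.01 CPM for Insr, and 88.2 ± 20.2 and 89.1 ± 20.99 CPM for Irs2 (SD, n = 19 each).

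The PI3K subunit Pik3r1 was at 85.7 ± 20.1 CPM in HL, 86.2 ± 19.3 CPM in LH and 82.2 ± 14.6 CPM in HH, and Pik3ca at 63.7 ± 11.2, 72.4 ± 14.3 and 69.3 ± 12.0 CPM (SD). Akt1 was at 140 ± 22.7, 152 ± 20.9 and 153 ± 28.1 CPM and Akt2 at 43.6 ± 8.96, 46.0 ± 8.66 and 46.7 ± 6.14 CPM in HL, LH and HH. By library number HL and LH were at 84.8 ± 19.2 and 89.1 ± 17.3 CPM for Pik3r1, 68.1 ± 7.14 and 70.3 ± 16.0 CPM for Pik3ca, 150.1 ± 18.2 and 139 ± 25.1 CPM for Akt1, and 45.7 ± 7.75 and 45.4 ± 8.58 CPM for Akt2. In both namings the differences within each of these genes were smaller than the SD of HL or LH.

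Foxo1 was at 24.1 ± 5.30, 26.3 ± 6.04 and 27.9 ± 4.71 CPM and Foxo3 at 52.8 ± 4.99, 58.2 ± 8.28 and 53.5 ± 8.77 CPM in HL, LH and HH (SD). For Foxo1 the difference of HH from HL was 0.19 on the log2 scale (95% interval -0.0046 to 0.38, edgeR adjusted p = 0.686). By library number HL and LH were at 26.0 ± 4.09 and 24.1 ± 6.40 CPM for Foxo1 and at 56.3 ± 7.33 and 53.6 ± 7.27 CPM for Foxo3, so that the order was the opposite of that by titles. The fitted difference of LH from HL changed sign between the namings in 5 of the 10 members, Irs1, Pik3r1, Akt1, Foxo1 and Foxo3, and that of HH from HL in none. Over all members, by titles, the intervals lay within -0.23 and 0.56 for LH against HL and within -0.32 and 0.63 for HH against HL. By library number they lay within -0.40 and 0.33 for LH and within -0.27 and 0.38 for HH.

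By titles HL had the lowest mean CPM of the 3 treatments in 9 of the 10 members, as it did in 46.6% of all genes tested. By library number it did so in 2 of 10, against 25.2% of all genes, and LH was lowest in 6 of 10, against 49.99%. The median fitted difference of the members was 0.07 for LH and 0.06 for HH against HL on the log2 scale by titles, and 0.0099 and 0.02 by library number, where that of all genes was 0.00 in both comparisons and namings.

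**Figure D3:**
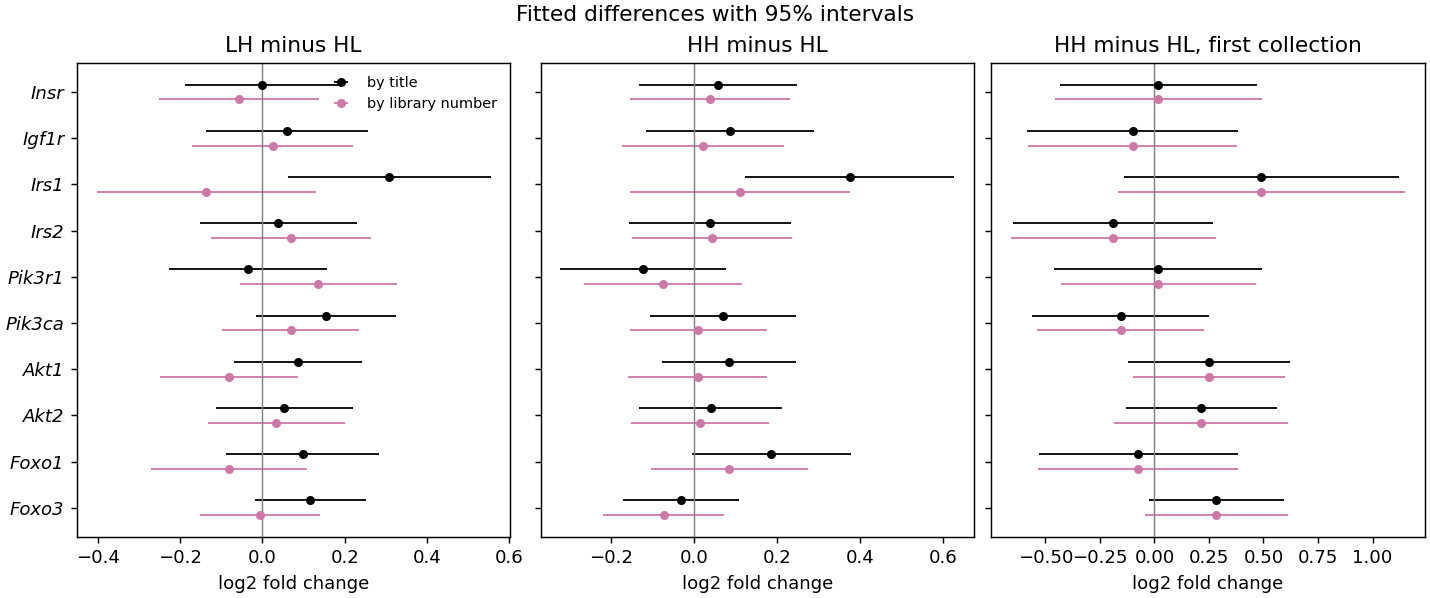
Difference in level of each member on the log2 scale with 95% intervals from edgeR, by titles and by library number. The panels show LH against HL, HH against HL, and HH against HL at the first collection. By titles the Irs1 intervals of the first 2 panels lie above 0 (0.06 to 0.56 and 0.12 to 0.63). At the first collection it crosses 0 (-0.14 to 1.12). By library number every interval of the 10 members crosses 0.

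At the first collection, HH against HL compares the same libraries in both namings, 4 of HH and 3 of HL. Irs1 was at 14.5, 17.7 and 16.0 CPM in HL and at 27.7, 20.1, 25.6 and 19.5 CPM in HH. All 4 HH values lay above the 3 HL values. The fitted difference was 0.49 on the log2 scale, but with a 95% interval of -0.14 to 1.12 it did not pass (edgeR adjusted p = 1). Akt1 was at 136 ± 10.6 CPM in HL and 166 ± 8.93 CPM in HH (SD) and did not overlap either, with a 95% interval of -0.12 to 0.62.

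The ranges of HL and HH did not overlap in these 2 of the 10 members and in 6.08% of all genes. Foxo3 was at 50.3 ± 5.55 CPM in HL and 63.0 ± 8.19 CPM in HH, with an overlap and a 95% interval of -0.03 to 0.59. No member and none of the 13292 genes (0%) passed at an adjusted p of 0.05 in edgeR, and no member had an unadjusted p under 0.05. By DESeq2, 0 members and 1 gene passed.

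The course of HH over the 6 collections has the same libraries in both namings, and no member passed either test of it. JTK, a rank test for a 24 h rhythm that gives an exact P and a phase of the peak, called 0 of 10 members and 1.99% of all genes at P under 0.01. Each exact P printed here is corrected for the phases searched and capped at 1. The edgeR test of any change over the collections called 0 members and 0.293% of all genes at an adjusted p under 0.05, and 1 member, Foxo3, had an unadjusted p under 0.05 (0.0331). The spread in edgeR is shared with the HL and LH libraries, so its p-values move with the naming, and by library number that of Foxo3 was 0.0543. In the same HH libraries JTK called 10 of 15 genes of a clock reference list and the test over collections called 8 of 15 (9 by library number), among them Nr1d1, Dbp, Tef and Per3.

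Irs2 came close to the threshold in HH, with an exact JTK P of 0.0245 and a phase of 14 h. It was at 88.3, 79.0, 78.4 and 69.0 CPM at the first collection and at 76.5, 79.1 and 72.3 CPM at the second. It was at 118, 96.9 and 102 CPM at the third, 118 and 91.8 CPM at the fourth, and 108, 100 and 131 CPM at the fifth, all above every library of the first 2 collections. At the sixth collection it was at 101, 74.6, 50.2 and 97.1 CPM, where the lowest value came from a library that stood apart. Without that library the exact P was 0.00683, which passed, as did 1.79% of all genes. A fitted 24 h cosine over all libraries had an amplitude of 0.31 on the log2 scale with a peak at 12.8 h (edgeR adjusted p = 0.348, and 0.258 by library number).

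Akt2 had the lowest exact JTK P among the members in HH, 0.0185, with a phase of 2 h. It was at 46.0, 51.6, 55.8 and 51.7 CPM at the first collection, 45.1, 47.9 and 60.5 CPM at the second, and 40.9, 52.9 and 44.6 CPM at the third. It was at 47.7 and 38.9 CPM at the fourth collection, 43.7, 36.2 and 38.2 CPM at the fifth, and 47.2, 48.6, 46.8 and 42.3 CPM at the sixth. The first 2 collections had the highest means and the fifth the lowest, with an amplitude of 0.18 on the log2 scale and a peak at 1.74 h.

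Among the other members in HH, Foxo3 had group means of 63.0, 51.6, 46.9, 61.7, 51.7 and 47.8 CPM from the first to the sixth collection, without a single peak, and an adjusted p of 0.499 over collections in edgeR. Insr had an amplitude of 0.25 on the log2 scale and a peak at 18.4 h (edgeR adjusted p = 0.495). JTK gave an exact P of 1 for Irs1, Pik3r1, Pik3ca, Foxo1 and Foxo3.

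**Figure D4:**
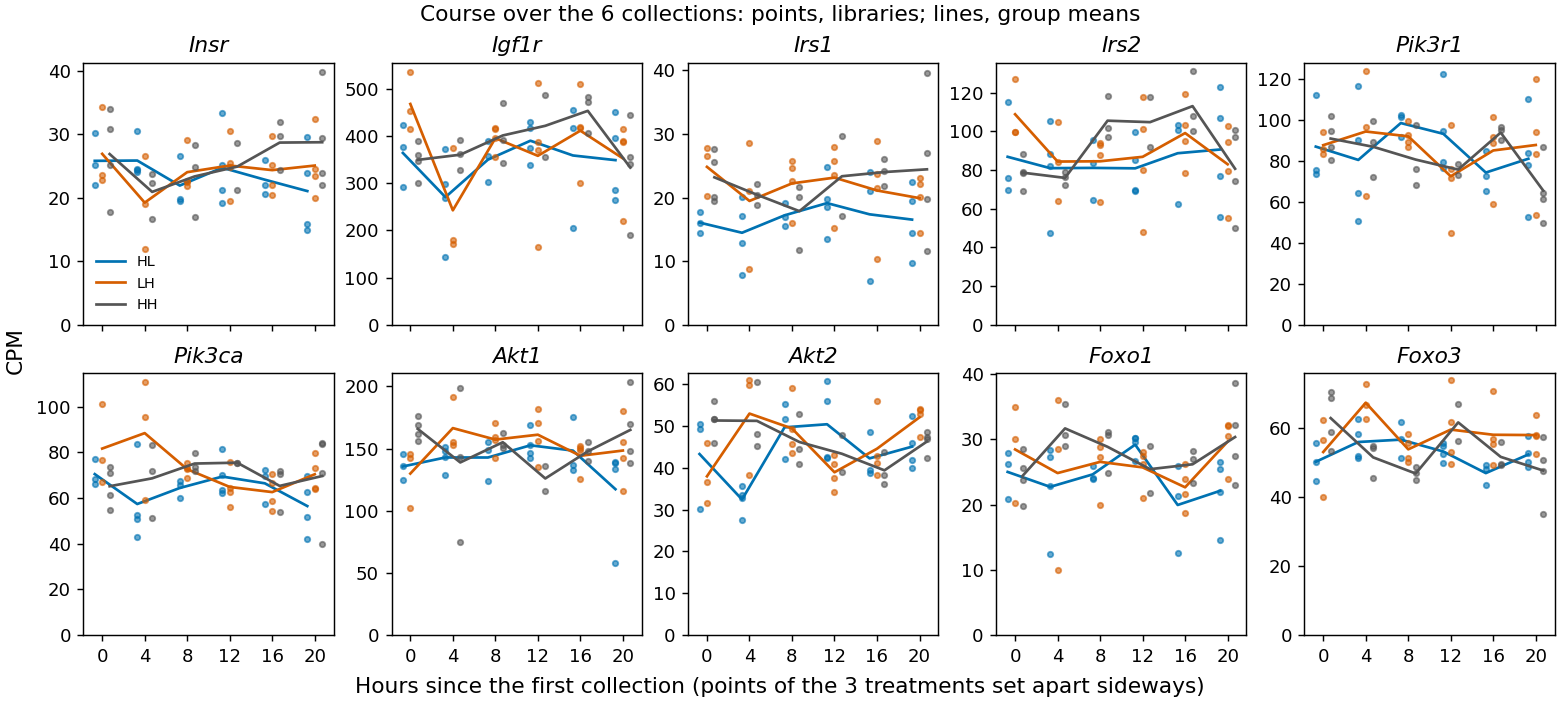
CPM of each member in every library (points) against hours after the first collection, with the mean at each collection joined by a line, for HL, LH and HH as the titles name them. The Irs2 means in HH go from 76.0 CPM at the second collection to 113 CPM at the fifth and 80.7 CPM at the sixth, and the points of the 3 treatments overlap in most panels.

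In HL and LH no member passed in either naming, and by titles 1 member in HL (Akt2) and 2 in LH (Akt2 and Pik3ca) had an unadjusted p under 0.05 over collections in edgeR. By library number none had in HL, and Pik3ca and Akt1 had in LH (edgeR adjusted p = 0.156 and 0.173), where the single library of the fifth collection held 41.9 CPM of Pik3ca and 58.1 CPM of Akt1 and was assumed to vary like the other groups. By titles JTK called 0.82% of all genes in HL and 1.53% in LH, and by library number 1.83% and 2.14%. The test over collections called 0.301% of all genes in HL and 2.93% in LH by titles, and 0.394% and 1.05% by library number. In the clock reference list JTK called 3 of 15 genes in HL and 6 of 15 in LH by titles, and 11 and 8 of 15 by library number. Without the libraries that stood apart the counts by titles were 7 and 4 of 15. In HL, Dbp had an exact JTK P of 0.00195 by titles and 9.57e-08 by library number. Tef passed in HL by library number (9.57e-08) and not by titles. In LH, Cry1, Per3 and Arntl passed JTK by titles and not by library number. Which naming is right was not tested.

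Akt2 was nearest to the threshold in LH, with an adjusted p of 0.0511 over collections by titles in edgeR. In LH it was at 36.5, 45.8 and 31.5 CPM at the first collection and at 59.8, 38.1 and 60.8 CPM at the second. It was at 49.3, 43.5, 45.6 and 59.0 CPM at the third and 37.6, 43.0, 34.1 and 40.9 CPM at the fourth. At the fifth it was at 55.9, 42.8, 41.2 and 38.2 CPM, and at the sixth at 52.9, 53.8, 53.9 and 47.4 CPM. The means from the first to the sixth collection were 37.9, 52.9, 49.4, 38.9, 44.5 and 52.0 CPM, and JTK gave an exact P of 1 for a 24 h rhythm. The adjusted p over collections was 0.0208 without the library of 104912 counts and 0.0104 by DESeq2, but 0.135 without the 5 libraries that stood apart and 0.704 by library number.

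Pik3ca in LH had an exact JTK P of 0.0432 by titles, with a phase of 2 h, and of 0.313 without the libraries that stood apart. It was at 101, 67.0 and 76.7 CPM at the first collection and 111, 95.3 and 59.0 CPM at the second, where the libraries of 111 and 95.3 CPM were ones that stood apart. The other 16 LH libraries lay between 54.3 and 79.9 CPM. The cosine had an amplitude of 0.27 on the log2 scale and a peak at 2.48 h by titles, and 0.21 and 20.5 h by library number (edgeR adjusted p = 0.263 and 0.504).

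Whether the 24 h cosine differed between the 3 treatments was tested directly. It did not in any of the 10 members at an adjusted p of 0.05, against 0.15% of all genes by titles and 0.00758% by library number. By titles 3 members had an unadjusted p under 0.05, Akt2, Irs2 and Pik3ca, with edgeR adjusted p of 0.461, 0.465 and 0.473. By library number none had.

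Of 55 other genes listed for the pathway 50 were tested, and few passed. By titles Trib3, a pseudokinase that binds AKT, was lower in LH (-0.64 on the log2 scale, SE 0.18, edgeR adjusted p = 0.472) and in HH (-0.47, SE 0.18, edgeR adjusted p = 0.594) than in HL. It was at 10.5 ± 4.54 CPM in HL, 6.99 ± 3.07 CPM in LH and 8.02 ± 2.84 CPM in HH (SD, n = 21, 22 and 19). It was the 1 gene of the list that passed the rule for level by titles, and it did not pass by library number. Without the libraries that stood apart it passed for LH (-0.62) and not for HH. By library number 3 genes were higher in LH than HL: the adaptor Sh2b1 by 0.32, the transcription factor Foxo4 by 0.27 and the adaptor Grb2 by 0.14 on the log2 scale (edgeR adjusted p = 0.62, 0.531 and 0.62). These are 3 of 50 genes, where the rule called 1.34% of all genes, and Trib3 is 1 of 50, where it called 1.16% and 1.2%.

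In HH, which does not rest on the naming, JTK called 1 of the 50 genes against 1.99% of all genes, which is the same share. That gene was Grb14, an adaptor that binds and inhibits the insulin receptor, with an exact P of 0.00711 and a phase of 16 h (0.00418 and 18 h without the libraries that stood apart). Its means in HH were 110, 87.6, 91.9, 110, 125 and 108 CPM from the first to the sixth collection. In LH by titles JTK called 3 of the 50 genes, against 1.53% of all genes: Grb10, a related inhibitory adaptor, and Foxo6 (exact P = 0.00648 each) and Sos1, an exchange factor for RAS (exact P = 0.00911), of which Sos1 did not pass and Tbc1d4 did (exact P = 0.00683) without the libraries that stood apart, where 1.91% of all genes passed. Among them Grb10 also passed by library number, where 2.14% of all genes did, with an exact P of 0.000706 but a phase of 4 h in place of 10 h. The test over collections called 1 of the 50 genes, Sh2b1, in LH by titles (edgeR adjusted p = 0.0185), against 2.93% of all genes, and none by library number or, by titles, without the libraries that stood apart.

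Of 25 listed targets of FOXO factors 21 were tested, and by titles none passed any of the 10 tests, though Sesn3, a stress-response gene, passed over the collections of LH without the libraries that stood apart (edgeR adjusted p = 0.017), as did 2.71% of all genes. By library number 1 did, Pink1, a mitochondrial kinase, over the collections of LH (edgeR adjusted p = 0.011), as did 1.05% of all genes, where the fifth collection held 1 library, assumed to vary like the other groups. The median difference of this list was 0.00 for LH and 0.01 for HH against HL on the log2 scale by titles.

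Among the 45 pairs of members, Pearson's r of log2(CPM + 1) over the 62 libraries ran from -0.25 to 0.76 with a median of 0.20. The highest was that of Igf1r and Irs2, with r = 0.76 and Spearman's rho = 0.75, and r = 0.81 over the 57 libraries left without those that stood apart. For Irs1 and Foxo1 r was 0.62 and rho 0.37, but 0.33 and 0.22 without them. These values describe libraries that share depth and treatment and carry no test.

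**Figure D5:**
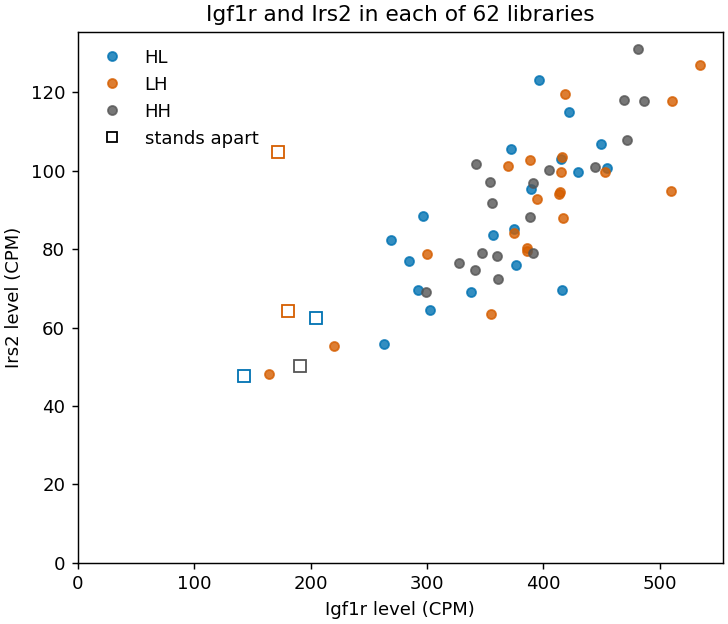
Irs2 against Igf1r in every library, both in CPM, coloured by treatment as the titles name it, with the 5 libraries that stood apart marked. Both levels rise together across the 62 libraries (r = 0.76 on the scale of log2(CPM + 1)), and those that stood apart have low Igf1r, from 143 to 205 CPM.

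Outside the members, and among genes with a mean of at least 10 CPM, the genes whose levels followed each member most closely over the 62 libraries are given by r. Igf1r was followed by Igsf10 (0.91), Rb1cc1 (0.89) and Mme (0.89), and Insr by Amotl2 (0.67), Esr1 (0.66) and Plcd1 (0.63). Irs1 was followed by Rab30 (0.87), Atp13a3 (0.84) and Pcdh18 (0.84), and Irs2 by Tenm4 (0.80), Rock2 (0.79) and Thbs1 (0.79). For Pik3r1 these were Zfp462 (0.75), Plec (0.75) and Ncl (0.74), and for Pik3ca Sec62 (0.76), Son (0.75) and Psmd1 (0.75). Akt1 was followed by Rpl7a (0.91), Cstb (0.89) and Gnb2 (0.89), while Akt2 was followed by Csnk1d (0.58), Eif4g2 (0.57) and Calu (0.56). Foxo1 was followed by Rhou (0.82), Prag1 (0.80) and Mtss1 (0.80), and Foxo3 by U2af2 (0.50), Prpf18 (0.49) and Prkaa1 (0.46). In the same order, Spearman's rho was below r for Akt1 (0.71, 0.68 and 0.68) and Foxo1 (0.49, 0.56 and 0.45). It was above r for Akt2 (0.69, 0.64 and 0.63). Without the 5 libraries that stood apart the highest r was 0.57 for Foxo1 (Prag1) and 0.60 for Foxo3 (Esyt2), and for the other members the highest r lay between 0.60 (Akt2 with Dhrs1) and 0.92 (Akt1 with Rpl7a).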

How the data were processed

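The deposited files hold raw counts per Ensembl gene identifier for 121 sets of counts, which the authors made per the labels with bcl2fastq, STAR 2.6.0a and HTSeq 0.9.1 on mm10. Annotation release and strand setting: not given in the sources used here. Reads assigned to no gene (18.4% to 29.1% of each set) or ambiguous (0.288% to 0.459%) were left out. The runs of a library were summed (59 libraries had 2 runs, 3 had 1). Tests covered the genes that reached 1 CPM in 3 or more libraries, 13292 by titles and 13198 by library number.

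Counts were fitted with edgeR 4.0.16 (R 4.3.3, TMM scaling, glmQLFit, glmQLFTest) over all libraries: treatment plus collection for level, a mean for each of 18 groups for the collections, and a 24 h cosine for rhythm. JTK was run on CPM with an exact null and phases every 2 h. The smallest exact P was multiplied by the 6 phases and capped at 1. DESeq2 1.42.0 was an alternative. The tests were checked on simulated data. The deposited sets give depth as the total count, and intervals reflect both counting and replicate spread. Named genes were all members, listed pathway genes and FOXO targets that passed a test in HH or between treatments, and the 3 genes with the highest r for each member; the listed genes called in LH alone, the related family genes set beside the members' levels, the genes named without the libraries that stood apart or for sharing promoter motifs, and the clock and marker genes were named after their values were seen. The members and lists were chosen with earlier results of these data known. Leaving out the 5 libraries that stood apart and a JTK null over collections were chosen after seeing the data. Replicate numbers were checked for pairing by titles. Deviations from group means of same-numbered libraries had a median r of 0.0015 (452 pairs), so no block was used.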

Additional observations from a re-analysis of the deposited data

Results flagged for a closer look

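In 9 groups of 4 libraries, 1 library lay far from the other 3 in 6 of 90 comparisons of a member's CPM, by Dixon's test at the 95% level, where chance alone gives about 1 in 20. Insr was at 30.6 CPM in replicate 4 of HL at the second collection, with the next value at 24.5 CPM. Insr was also high in replicate 4 of LH at the third collection, at 29.1 CPM against 22.7 CPM. Igf1r was low in replicate 1 of LH at the sixth collection, at 220 CPM, where the next value was 386 CPM. Akt1 was low in replicate 4 of HL at the sixth collection, at 58.1 CPM against 133 CPM, and in replicate 4 of LH at the fifth, at 126 CPM against 149 CPM. Akt2 was at 47.4 CPM in replicate 4 of LH at the sixth collection, below 52.9 CPM in the next. None of these libraries was among the 5 that stood apart.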

How the results depend on the processing

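The call for Irs1 in the level of LH and of HH against HL went from 1 member to 0 by library number, with the second sequencing run alone, without libraries under 1000000 counts, with a replicate block, with Benjamini-Hochberg adjustment and without the libraries that stood apart. Leaving out 1 replicate number of 1 treatment gave 0 to 1 members, with 0 without replicate 2 or 3 of HL, 3 or 4 of LH and 1, 2 or 3 of HH. The Irs1 difference itself stayed near its value of 0.31 for LH and 0.37 for HH with the second run alone (0.34 and 0.40) and without libraries under 1000000 counts (0.31 and 0.38), and leaving out a replicate it ran from 0.23 to 0.39 for LH and from 0.29 to 0.53 for HH. With the replicate block Irs1 differed by 0.30 for LH and 0.35 for HH, and the block left the number of members called at 0 over the collections, at the first collection and for the rhythm difference. JTK was not run with it. Irs1 reversed by library number for LH against HL, at -0.14. By titles, replicate numbers showed no pairing of the libraries: 25.4% of same-numbered and 28.7% of other pairs had an r over 0.1. This check took numbers and groups from the titles, so it cannot show a pairing where the titles are wrong. For the rhythm of LH, 1 member (Pik3ca) was called by a cosine in edgeR at an unadjusted p under 0.01 in place of JTK, with an adjusted p of 0.263. For the rhythm of HH, 1 member was called with the first run alone, with CPM by TMM library size and without the libraries that stood apart (Irs2), and leaving out a replicate gave 0 to 1 (Akt2 without replicate 1). Over the collections of LH, 1 member was called without libraries under 1000000 counts, with genes that reached 1 CPM in 31 or more libraries, with RLE scaling, by DESeq2 and at an unadjusted P of 0.01 (Akt2), and with no gene filter (Igf1r), and leaving out a replicate gave 0 to 1 (Akt2 without replicate 2 or 3 of HL or 2 of LH). Over all genes, the 154 called for the level of LH ranged from 0 to 387 over the alternatives and the 160 for HH from 0 to 399. The rhythm of HH had 1.99% of genes and 3 to 382 genes, that of LH 204 and 0 to 434, and that of HL 0.82% of genes and 0 to 1.83%. The collections of HH had 39 genes and 4 to 498, those of HL 40 and 6 to 638, those of LH 390 and 46 to 1254, the rhythm difference 20 and 1 to 401, and the first collection 0 and 0 to 36. The library of 104912 counts held 2 counts of Insr and 18 of Igf1r, which limits its values. DESeq2 gave no adjusted p for 5 members in HH against HL. The cause of these changes was not tested.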
